A study of Arabidopsis thaliana with 6 samples.

Results

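ZAT12, ZAT10, ZAT6 and AZF2 are zinc-finger transcription factors of Arabidopsis thaliana that are known for their response to stress. They were followed here through 4 probe sets of the Affymetrix ATH1 array, named by their identifiers in a rule that sets no limit on their values, although earlier results of these data were known when it was written, out of 22810 probe sets on the array and 22746 that were tested. ZAT12 (AT5G59820) was read from 247655_at, ZAT10 (AT1G27730, also called STZ) from 261648_at, ZAT6 (AT5G04340) from 245711_at and AZF2 (AT3G19580) from 257022_at. The platform's gene table used here pairs 1 of these probe sets with its gene, ZAT10, and the pairing of the other 3 is that of the set's definition.

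The samples were a mixotrophic cell culture, whose cells both photosynthesise and use an organic carbon source from the medium. The treated group held 3 samples given phytoprostane A1 (PPA1), a reactive oxylipin that arises from a fatty acid without enzymes, at 75 µM for 4 h. The control group held 3 samples kept for 4 h in 0.5% methanol in water. No methanol content is given for the treated samples in the sources used here. The labels name neither the line nor its genotype. The replicates are described as independent, with no word on how, so the p-values cover only the variation among these 6 samples, which may be technical. The question behind the design is how such an oxylipin regulates gene expression, and for arrays the number of replicates, 3 per group, limits the precision.

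These proteins carry a pair of C2H2 fingers, in which a zinc ion held by cysteines and histidines stabilises a small DNA-binding fold. They also carry a short EAR motif through which plant repressors recruit co-repressors. Their transcripts are known to rise quickly and often briefly when plants meet reactive oxygen species, cold, salt, strong light or wounding. ZAT12 is known for its part in the response to oxidative stress and strong light, ZAT10 for salt tolerance, ZAT6 for phosphate balance and heavy-metal tolerance, and AZF2 for repression of genes under abscisic acid and osmotic stress. Fewer responding cells and less transcript per cell cannot be told apart in such bulk RNA.

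The arrays were not equally alike within a condition. Over the 10135 probe sets whose mean log2 signal reached 6, the log2 signals of PPA1 replicates 2 and 3 correlated with r = 0.987 across probe sets, control pairs gave 0.908 to 0.958, and PPA1 replicate 1 gave 0.833 and 0.839 with the other two treated arrays. Median signals per array lay between 41.9 and 51.0, and the median log2 change of all tested probe sets was -0.21. Of 12 cell type markers, 2 have a probe set in the gene table. These were FAMA, a guard cell factor, at signals of 4.35 to 10.9 in controls and 6.84 to 16.1 after PPA1, and EXPA7, a root hair expansin, at 4.60 to 11.8 and 1.92 to 10.3. Both were listed as markers of differentiated cells that a culture should lack. Their mean log2 signals of 3.02 and 2.81 lie under the limit of 4 that marked dim probe sets here. Neither passed (limma adjusted p = 0.369 and 0.703). Markers of photosynthetic and dividing cells were not analysed here.

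ZAT12 had the largest change of the 4. Its signal was 31.1, 62.4 and 33.6 in control replicates 1 to 3 and 66.4, 903.3 and 1000.1 in PPA1 replicates 1 to 3. PPA1 replicates 2 and 3 stood far above every control, while PPA1 replicate 1 lay just above the highest control, so the groups did not overlap but came close. On the log2 scale the controls averaged 5.33 ± 0.55 and the treated arrays 8.61 ± 2.22 (mean ± SD of 3 arrays each). The log2 change was therefore 3.28 (standard error 1.11), or 9.72-fold, and did not pass the threshold of 0.05 after adjustment over all tested probe sets (limma, adjusted p = 0.165). Only 0.893% of tested probe sets had a change as high or higher, which placed ZAT12 at rank 203 of 22746.

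ZAT10 followed the same order of arrays as ZAT12 at a smaller size. Its signal was 24.7, 38.6 and 25.7 in control replicates 1 to 3 and 47.4, 125.0 and 133.3 in PPA1 replicates 1 to 3. The groups did not overlap, and again the first treated array lay nearest to the controls. Its log2 signal averaged 4.86 ± 0.36 in controls and 6.53 ± 0.84 in treated cells (mean ± SD of 3 arrays each). That is a log2 change of 1.67 (standard error 0.47), or 3.18-fold (limma, adjusted p = 0.122). A change of this size or higher was found in 4.13% of tested probe sets.

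ZAT6 had a smaller and more even difference. Its signal was 26.4, 26.3 and 31.6 in control replicates 1 to 3 and 43.2, 57.7 and 57.1 in PPA1 replicates 1 to 3. All 3 treated arrays lay above all controls, with less distance between the first treated array and the others than for ZAT12 or ZAT10. Its log2 signal averaged 4.81 ± 0.15 in controls and 5.71 ± 0.24 in treated cells (mean ± SD of 3 arrays each), a log2 change of 0.90 (standard error 0.22), or 1.87-fold. Its limma adjusted p of 0.0978 was the lowest of the 4, although 10.7% of tested probe sets had a change as high or higher.

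AZF2 did not separate the conditions. Its signal was 36.9, 40.8 and 87.4 in control replicates 1 to 3 and 42.6, 51.5 and 75.5 in PPA1 replicates 1 to 3. The values of the groups overlapped, and replicate 3 was the highest in both. Its log2 signal averaged 5.67 ± 0.68 and 5.78 ± 0.42 (mean ± SD of 3 arrays each), a log2 change of 0.11 (standard error 0.42; limma, adjusted p = 0.895). Its direction was not settled, since leaving out control replicate 1, control replicate 2 or PPA1 replicate 3 gave -0.12, -0.05 and -0.12.

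**Figure D1:**
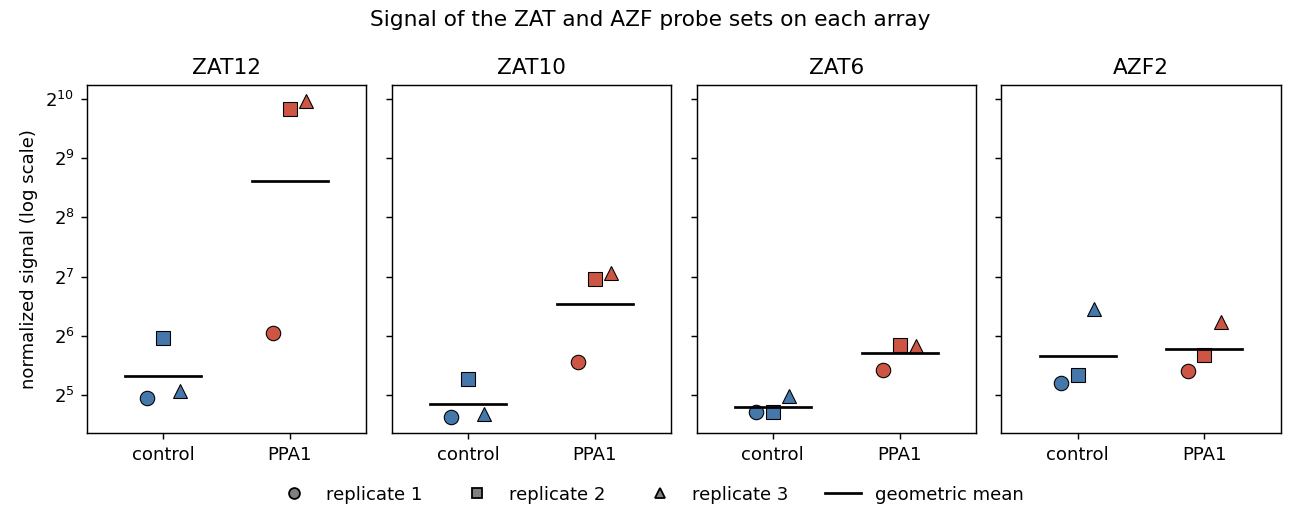
Normalized signal (log axis) of each probe set on each of the 6 arrays, with symbols for the replicate number and a line at the geometric mean of each group of 3. ZAT12, ZAT10 and ZAT6 are higher on all treated arrays, with PPA1 replicate 1 the lowest of the treated arrays in each, and AZF2 overlaps between the conditions.

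Across the set, 0 of the 4 probe sets passed in either direction (limma, adjusted over 22746 probe sets), where 0.809% of tested probe sets were called higher and 0.994% lower. At an unadjusted limma p under 0.05, 3 of the 4 were higher, against 8.26% of tested probe sets. In the fit limited to a mean log2 signal of at least 4, which all 4 members reach, 3 were again higher, against 1912 of 14850 probe sets. In 3 of the 4 all treated arrays lay above all controls, against 10.8% of tested probe sets as deposited. With each array centred on its median the same 3 still did not overlap, against 16.8% of tested probe sets. The median log2 change of the 4 was 1.28, beside the -0.21 of all tested probe sets. Relative to each array's median the log2 changes were 3.49 for ZAT12, 1.88 for ZAT10, 1.11 for ZAT6 and 0.32 for AZF2. In two-sided exact permutation tests over the arrays the p was 0.1 for ZAT12, ZAT10 and ZAT6, the smallest that 3 arrays against 3 can give, and 0.8 for AZF2.

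Whether a member passed depended on the probe sets and arrays that entered the fit. When the fit was limited to the 14850 probe sets whose mean log2 signal reached 4, as that of all 4 members did, ZAT10 (limma adjusted p = 0.0471) and ZAT6 (0.0333) rose and ZAT12 did not pass (0.0742), where 5.39% of those probe sets were called higher. Without PPA1 replicate 1, ZAT12, ZAT10 and ZAT6 all passed, with log2 changes of 4.56, 2.15 and 1.04 (limma adjusted p = 0.00924, 0.0181 and 0.0348), where 6.32% of tested probe sets were called higher. Leaving out any other single array gave 0 calls in limma, members included. At an unadjusted limma p under 0.05 those fits had 2 or 3 members higher and 0 lower. Of all tested probe sets 1208 to 1567 were higher there and 2133 to 2790 lower. At the limit of 4, leaving out any of those arrays also gave 0 members in either direction (lowest limma adjusted p = 0.0629, ZAT6). Those fits called 0.741% to 2.02% of probe sets higher and 0.626% to 3.25% lower. AZF2 passed in 0 of the 23 alternatives that could give it a value. The other settings that called 1 or more members called more of the whole table too, with 3.29% of probe sets higher when 32 was added to each signal, 3.48% with a robust variance trend and 9.36% with array weights. A block for the replicate number called 3.66% of probe sets higher when joined to that trend and 4.11% when joined to the limit of 4. At that limit and without PPA1 replicate 1, where the same 3 members passed, 14.9% of probe sets were called higher. Centring each array on its median gave 0 members higher, where 1.05% of probe sets were called higher. Quantile normalization (0.901%) and a block for replicate 1 against replicates 2 and 3 (0.73%) also gave 0 members higher.

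**Figure D2:**
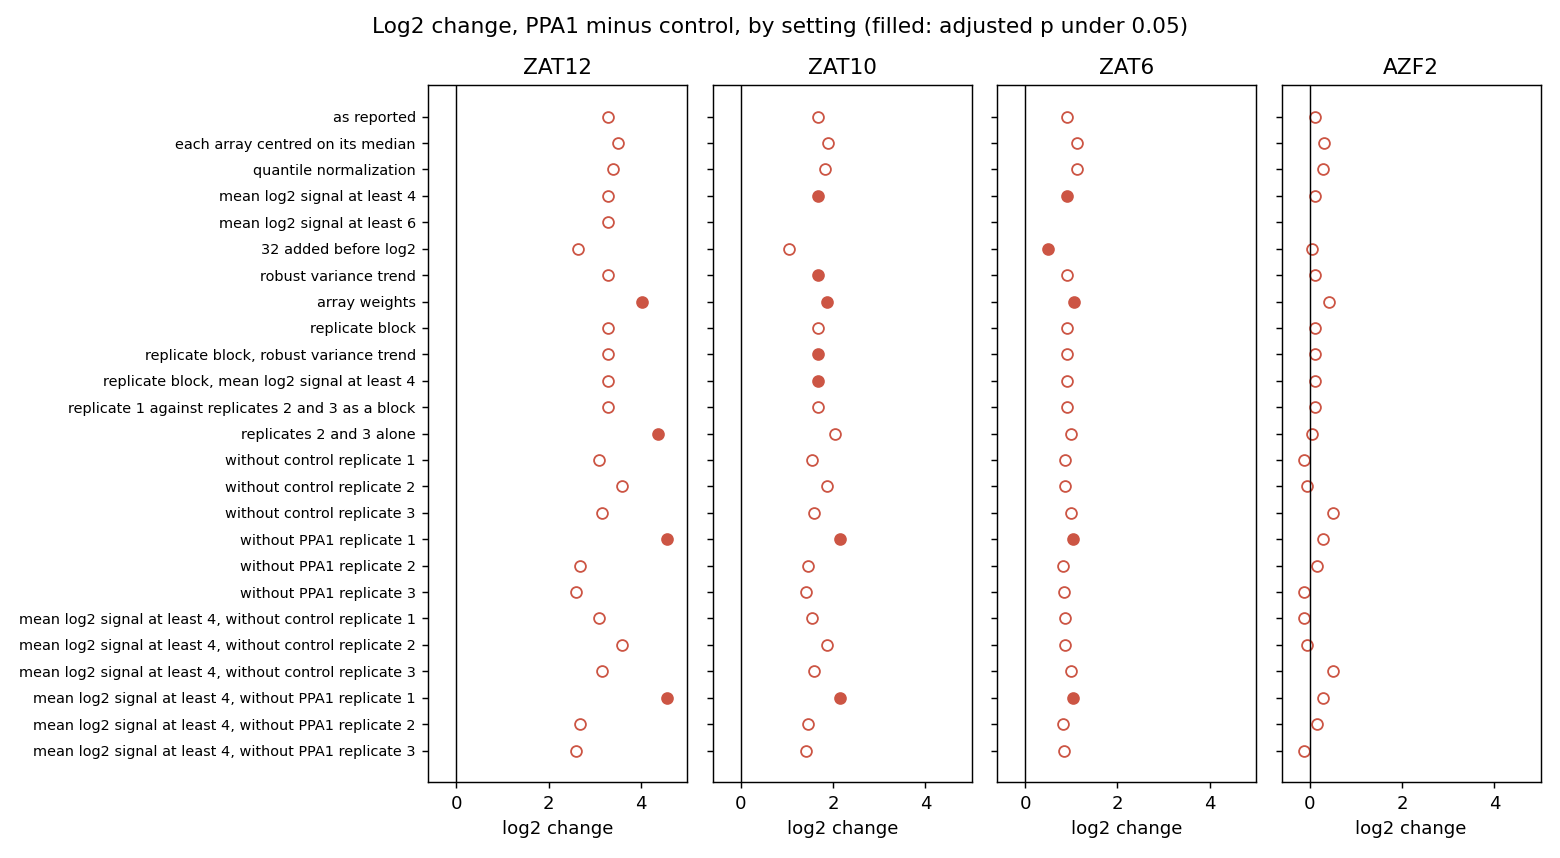
Log2 change, PPA1 minus control, of each member (x axis) under the reported fit and each alternative (y axis), filled where the limma adjusted p was under 0.05. ZAT12, ZAT10 and ZAT6 stay above 0 throughout, between 2.60 and 4.56, 1.05 and 2.15, and 0.49 and 1.13, while AZF2 lies between -0.12 and 0.50 and is never filled.

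The treated arrays disagreed on the size of the ZAT12 change more than on that of ZAT6. In replicate 1, with 1 array per condition and so no test, the signal after PPA1 was 2.13-fold that of the control for ZAT12, 1.92-fold for ZAT10, 1.64-fold for ZAT6 and 1.15-fold for AZF2. PPA1 replicate 1 was set here against control replicate 1, a pairing by number that the labels do not explain. The folds and shares of replicate 1 depend on that choice. For ZAT12 that control was the lowest (31.1), and PPA1 replicate 1 (66.4) lay just above control replicate 2 (62.4). In replicates 2 and 3 alone the folds were 20.8 for ZAT12, 4.10 for ZAT10, 1.99 for ZAT6 and 1.04 for AZF2. There ZAT12 passed (limma adjusted p = 0.0361), while ZAT10 (0.0527) and ZAT6 (0.0808) did not, where 3.38% of tested probe sets were called higher. On the log2 scale the difference in replicate 1 was thus 25.0% of that in replicates 2 and 3 for ZAT12, 46.2% for ZAT10 and 71.3% for ZAT6. Of the 769 probe sets called higher in replicates 2 and 3 alone, 621 (80.8%) were also higher in replicate 1, against 45.9% of all tested probe sets. Their median share was 28.9%, with quartiles of 6.77% and 57.0%, and ZAT12 is one of the 769. Since these were selected for a large difference in replicates 2 and 3, the selection itself lowers their shares, and ZAT10 and ZAT6, which did not pass there, are not among them. Why PPA1 replicate 1 differed was not tested.

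**Figure D3:**
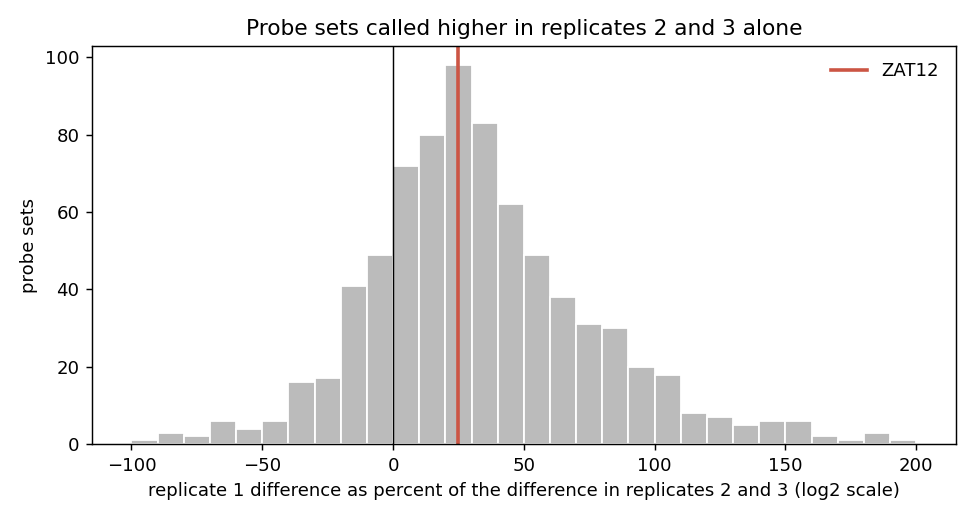
Histogram of the log2 difference in replicate 1 as a percent of that in replicates 2 and 3, for the 769 probe sets called higher in replicates 2 and 3 alone (4 lie beyond the axis), with a line for ZAT12. ZAT12 stands at 25.0% and the median of the 769 is 28.9%, in a set selected by the difference in the denominator. The replicate 1 difference is from the control of the same number, a pairing that the labels do not explain.

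The sizes of the changes were compared between members through the log2 ratio of both probe sets on each array, in 6 pairs with two-sided exact permutation tests. The change of ZAT12 exceeded that of ZAT10 by 1.61 on the log2 scale and that of ZAT6 by 2.38, and the change of ZAT10 exceeded that of ZAT6 by 0.77 (exact p = 0.2 for each). The differences from AZF2 were 3.17 for ZAT12, 1.56 for ZAT10 and 0.79 for ZAT6 (exact p = 0.1 for each, the smallest possible). In these 3 pairs the ratios of the conditions did not overlap, in the other 3 they did, and all 6 had an adjusted p of 0.2. The order ZAT12, ZAT10, ZAT6, AZF2 therefore describes the means and was not separated by these tests.

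The rise and fall of signal over the 6 arrays was most alike for ZAT12 and ZAT10, whose log2 signals ranked the arrays identically (r = 0.989, Spearman's rho = 1). ZAT6 gave r = 0.895 with ZAT12 and 0.919 with ZAT10, and AZF2 gave 0.244 to 0.373 with the other three. These values describe 6 arrays that share the treatment contrast, so they carry no test.

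Among 5374 probe sets of 1 gene that reached a mean log2 signal of 6, those most like each member over the 6 arrays were also taken out. AT3G27100 was most like ZAT12 (r = 0.9985), at signals of 122.9, 154.5 and 135.5 in controls and 155.9, 348.0 and 361.2 after PPA1. Its first treated array was just above its highest control, as for ZAT12, but its fold was 1.97. AT2G44200 (r = 0.9973) and AT1G76920 (r = 0.9971) came next, at 1.53-fold and 1.19-fold. For ZAT10 the nearest were AT5G56140 (r = 0.9975, 2.38-fold), AT1G13195 (r = 0.9965, 3.69-fold) and AT2G46230 (r = 0.9964, 1.51-fold).

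ZAT6 was most like AOR (AT1G23740, r = 0.9989), the alkenal/one oxidoreductase, an enzyme that reduces reactive unsaturated carbonyls. AOR had signals of 184.0, 176.2 and 256.3 in controls and 411.1, 736.4 and 699.1 after PPA1, which did not overlap, and its log2 change was 1.56 (standard error 0.32; limma, adjusted p = 0.0738). Next to it came AT5G61530 (r = 0.9973, 1.82-fold) and AT5G38030 (r = 0.997), whose signal went from 8.68 to 25.3 in controls to 175.0, 1831 and 1891 after PPA1. Likeness by r therefore held across very different sizes of change, 1.82-fold and 64.7-fold. The 64.7-fold of AT5G38030 rests on low control signals of 8.68 to 25.3, and how far its size depends on them was not tested. AT5G38030 reached the mean log2 signal of 6 only through its treated arrays. The probe sets most like AZF2 were AT1G36380 (r = 0.9851), AT1G56180 (r = 0.9617) and AT5G23390 (r = 0.9592), which moved by 1.02-fold to 1.10-fold between conditions. Of the 12 probe sets named for likeness 0 passed (limma adjusted p from 0.0552 to 0.969). At an unadjusted p under 0.05, 6 were higher, against the 8.26% of all tested probe sets, a count that follows from choosing them for the pattern of the members.

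AZF2, highest in replicate 3 of both conditions, differed between the PPA1 and control arrays of the same number by 0.21, 0.34 and -0.21 on the log2 scale in replicates 1 to 3. Each was smaller than the 1.24 between control replicates 3 and 1. COR15A and COR47, cold-induced genes whose products protect dehydrating cells, are the 2 of 6 listed cold response genes that have a probe set in the gene table. COR15A stood at 117.4, 52.2 and 79.6 in control replicates 1 to 3 and at 117.3, 53.1 and 81.5 on the PPA1 arrays of the same numbers. COR47 had 260.0, 1116 and 1859 in controls and 270.4, 1722 and 1828 after PPA1. Both thus differed between replicate numbers and took nearly the same value in both conditions at each number, apart from COR47 in replicate 2. Neither passed, with log2 changes of 0.02 for COR15A and 0.22 for COR47 (limma adjusted p = 0.984 and 0.92). The labels do not say what samples of the same number share.

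**Figure D4:**
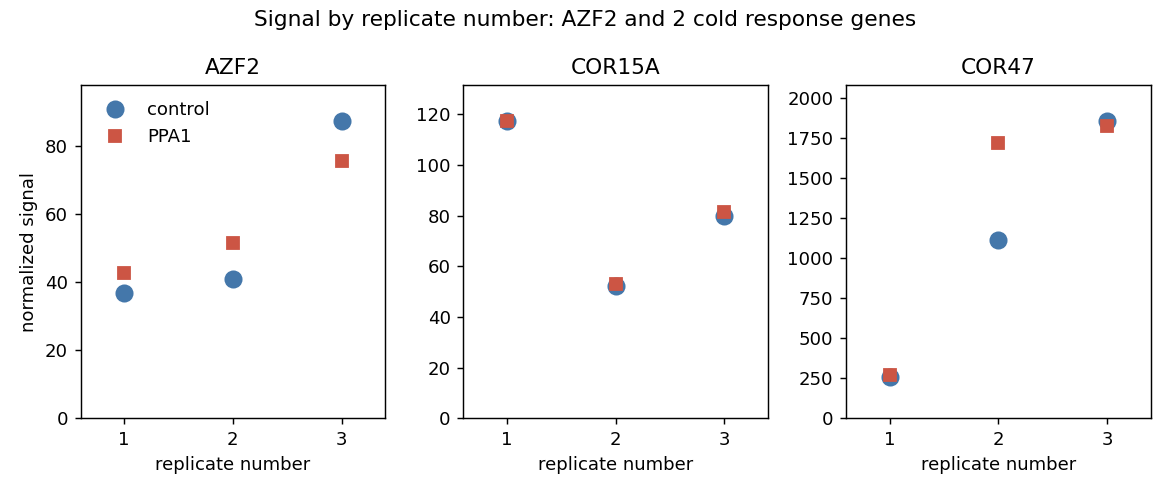
Normalized signal (linear axis from 0) of AZF2, COR15A and COR47 by replicate number, with circles for control and squares for PPA1. In COR15A both conditions lie on each other at 117, 52 to 53 and 80 to 82, and AZF2 is highest in replicate 3 of both conditions.

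Of 14 other C2H2 genes listed as relatives of the members, from general knowledge of the family, 6 have a probe set in the gene table, which gives them by locus alone. Of these, 1 passed as higher and 0 as lower (limma, adjusted over 22746 probe sets), against the same 0.809% and 0.994%. At an unadjusted p under 0.05, 2 were higher and 0 lower, against 8.26% and 14.8% of tested probe sets. Their median log2 change was -0.62, with 2 changes above 0 and 4 below.

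AT2G28710 was the relative that rose. Its signal was 35.8, 20.4 and 26.2 in control replicates 1 to 3, and 180.3, 285.8 and 233.0 in PPA1 replicates 1 to 3. Every treated array stood far above every control, the first included. Its log2 signal averaged 4.74 ± 0.41 in controls and 7.84 ± 0.33 in treated cells (mean ± SD of 3 arrays each). The log2 change was 3.10 (standard error 0.31), or 8.57-fold (limma, adjusted p = 0.0241). Its fold was thus close to the 9.72 of ZAT12, with a standard error of 0.31 in place of 1.11. In replicate 1 alone, against the control of the same number, it differed 5.04-fold, where ZAT12 differed 2.13-fold. That control was the highest of the 3 for AT2G28710 and the lowest for ZAT12. It passed in 18 of 24 alternatives. These include the limit of mean log2 signal at least 6, which it reached only through its treated arrays. The call was lost when replicate numbers were blocked (limma adjusted p = 0.135) and without any single array other than PPA1 replicate 1 (0.0668 to 0.117), at log2 changes of 2.90 to 3.31, in fits that called 0 of all tested probe sets. It held when that block was joined to the robust variance trend (0.00636) or to the limit of 4 (0.0208), and at that limit without each array in turn (0.000725 to 0.0278).

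The other relatives did not pass. AT3G53600 had signals of 0.295, 0.390 and 0.499 in controls and 0.556, 4.16 and 4.55 after PPA1. This kept the order of ZAT12 on the treated arrays but lies where signals are close to 0. Its log2 change of 2.50 became 0.11 when 32 was added to each signal, and how far it depends on the background step was not tested. AT2G28200 had 15.4, 35.3 and 54.5 in controls and 15.8, 8.05 and 16.1 after PPA1, a log2 change of -1.29 (standard error 0.55; limma, adjusted p = 0.234). AT3G60580 and AT5G03510, both with mean log2 signals under 4, had changes of -1.00 and -1.14, and AT2G45120 had -0.24, in each with overlapping groups.

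**Figure D5:**
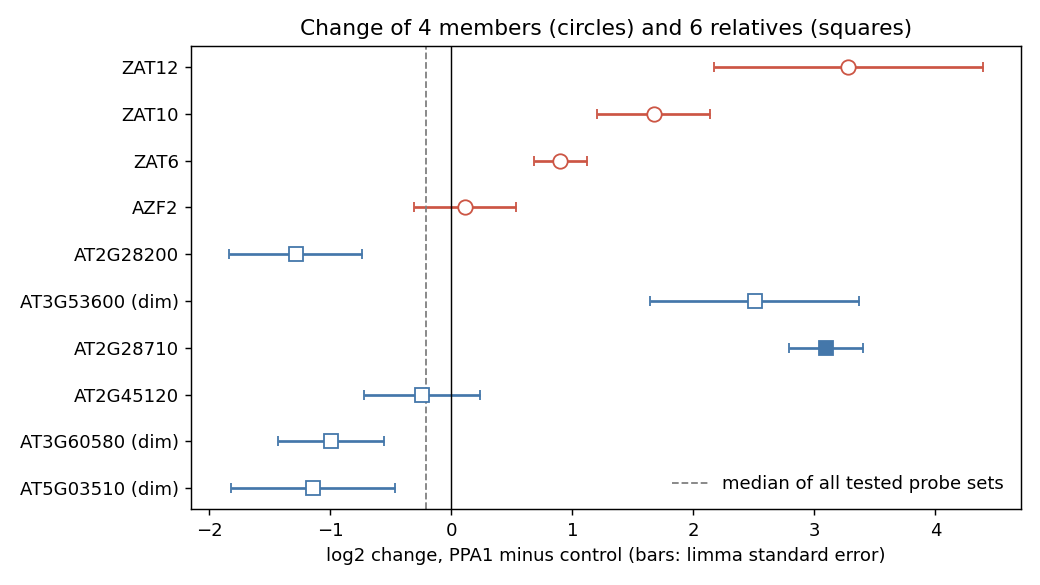
Log2 change, PPA1 minus control, with its limma standard error, for the 4 members (circles) and 6 relatives (squares), filled where the adjusted p was under 0.05 and marked dim where the mean log2 signal was under 4. Only AT2G28710 is filled, at 3.10, and the bar of ZAT12 at 3.28 is the widest.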

How the data were processed

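The deposited values are probe set intensity signals on a linear scale, from 0.00178 to 11319.7, already normalized by the authors when deposited. Per the submitters' processing notes the tool was GCRMA, a background correction by probe sequence followed by normalization and probe set summary. The sources used here give no version. Signals were taken to log2 without a pseudocount, 64 manufacturer controls were set aside, and 22746 probe sets were fitted with limma 3.58.1 in R 4.3.3 (lmFit, eBayes, condition as the only term, two-sided, Benjamini-Hochberg adjusted p under 0.05). The fit was tested on simulated data. No detection calls were given, so a mean log2 signal of 4 (a signal of 16) marked dim probe sets. Members, gene lists, rules and alternatives were chosen with earlier results of these data known. The named items were the 4 members, listed relatives and other listed genes with a probe set of 1 gene, and the 3 probe sets most like each member. The platform gene table holds 14016 probe sets, 13513 with 1 gene symbol and 503 with several, and 8730 tested probe sets are not in it. Of 44 listed genes 8 could be followed. Lists of kinases and factors upstream, abscisic acid genes, ascorbate peroxidases and superoxide dismutases, and early stress genes had 0 with a probe set there and were not analysed here.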

Additional observations from a re-analysis of the deposited data

How the results depend on the processing

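ZAT12, ZAT10 and ZAT6 stayed higher after PPA1 in all of their 24, 23 and 23 alternatives, with log2 changes of 2.60 to 4.56, 1.05 to 2.15 and 0.49 to 1.13, but passed in 4, 7 and 5 of them. Against 0 of 4 members higher, a limit of mean log2 signal at least 4 gave 2 (ZAT10 1.67, ZAT6 0.90), 32 added before log2 gave 1 (ZAT6 0.49), the robust variance trend 1 (ZAT10 1.67), array weights 3 (4.01, 1.88 and 1.05), and replicates 2 and 3 alone 1 (ZAT12 4.37). Leaving out 1 array gave 0 to 3 members, with and without the limit of at least 4, and changes of 2.60 to 4.56 for ZAT12, 1.41 to 2.15 for ZAT10, 0.83 to 1.04 for ZAT6 and -0.12 to 0.50 for AZF2, whose 6 reversals (-0.121, -0.049 and -0.12, each with and without that limit) all came from leaving out an array. The count of 3 came without PPA1 replicate 1, where 6.32% of probe sets were called higher, or 14.9% at that limit. The limit of at least 6 held ZAT12 alone, which reached it through its treated arrays and did not pass (limma adjusted p = 0.0654). Its controls averaged a log2 signal of 5.33, under the 5.67 of AZF2. The number of members lower was 0 throughout, in fits that called 0% to 23% of their probe sets lower. With the replicate block 0 members passed (limma adjusted p = 0.188, 0.17, 0.183 and 0.802), as did 0 of all tested probe sets, with 3 members higher at an unadjusted p under 0.05 (1768 of all tested probe sets higher and 3032 lower); joined to the robust variance trend or to the limit of at least 4, the block gave 1 (ZAT10, 1.67 in both). Deviations of same-numbered arrays correlated with r = 0.064, 0.032 and 0.025 over all tested probe sets and 0.164, 0.239 and 0.154 over those with mean log2 at least 6, and 6 of 6 arrays correlated best with their own number in both sets, a hint from the data and not from the design. It is a weak hint, as each deviation is from the mean of its own 3 arrays, so the 6 matches are not independent. The brighter set is also part of the whole. For the 6 relatives, 1 higher became 2 with array weights or replicates 2 and 3 alone, 0 with the replicate block, and 0 to 2 on leaving out 1 array, where fits with 0 relatives called 0 of the whole table. It stayed 1 with the block joined to the robust variance trend or to the limit of at least 4, and at that limit on leaving out each array. AT2G45120 reversed under quantile normalization (0.066) and without control replicate 2, and on leaving out 1 array ranged from -0.744 to 0.157. COR15A ranged from -0.278 to 0.312, reversed on leaving out control replicate 2 or PPA1 replicate 1 (-0.26), and COR47 from -0.604 to 1.124, reversed on leaving out control replicate 1, PPA1 replicate 2 (-0.211) or PPA1 replicate 3 (-0.255). Differences between members kept their sign in all 10 alternatives run for each pair. The causes were not tested.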
